A study of Homo sapiens with 4 samples.

Results

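Transforming growth factor beta (TGF-beta) genes were examined in HCC1954 cells, an established human breast cancer line, with and without depletion of the palmitoyltransferase ZDHHC15. The 10 genes were chosen by symbol: the ligand genes TGFB1, TGFB2, TGFB3 and INHBA, the latent-complex family gene LTBP2, the receptor genes TGFBR1 and TGFBR2, the SMAD genes SMAD3 and SMAD7, and the TGF-beta-induced matrix gene TGFBI. All 10 were found among the 58735 genes of the count table, and all 10 were among the 15817 genes counted highly enough to be tested. The list was drawn up with earlier results of these data known.

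The study asked how gene expression changes when ZDHHC15 is removed. Total RNA was sequenced from 2 samples with a scrambled control hairpin (shCON) and 2 samples with a hairpin against ZDHHC15 (shZDHHC15), both in HCC1954 cells carrying lentiviral GIPZ vectors and grown in serum-containing medium. The labels speak of a stable knockdown in the design text and of plasmid transfection with harvest after 36 h in the protocol, and the methods mention screening of monoclonal cultures. Whether the samples of a group were separate cultures, clones or hairpins is not said, so p-values measure the spread between these samples, which may be technical.

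TGF-beta ligands are made as precursors that stay bound to a latency peptide until integrins, proteases or thrombospondin release them. The free ligand brings type II and type I receptors together, the type I receptor phosphorylates SMAD2 and SMAD3, and these enter the nucleus with SMAD4 to regulate target genes. Activins, dimers of the inhibin beta subunits, act through their own receptors on the same SMADs. In mammary epithelium the pathway is known for restraint of proliferation, and in carcinoma cells for its link to matrix remodelling and invasion.

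The counts on genes summed to between 17560982 and 19118704 per sample, and mitochondrial genes took between 2.07% and 2.63%. ZDHHC15 itself was at 17617 and 15716 counts in shCON and at 0 in both shZDHHC15 samples, which allows up to 3 counts in a sample (0.161 CPM, or counts scaled to library size, at the shallower of these samples, counting error only). Within a group, a chi-square comparison of the 2 samples gave 8.32 per degree of freedom for shCON and 6.79 for shZDHHC15, so the samples differed by more than counting noise. All 8 epithelial markers examined were detected, with a summed level of 16200 and 18000 CPM in shCON and 6270 and 7400 CPM in shZDHHC15. KRT17 and KRT8 were the largest parts of this sum, with means of 6170 and 6060 CPM in shCON and 2060 and 1970 CPM in shZDHHC15. In the epithelial list 6 genes fell and 1 rose at an adjusted p under 0.05, where 20.3% of all tested genes fell and 21.7% rose. CDH1 was not called (log2 fold change -0.05, adjusted p = 0.706 by edgeR's quasi-likelihood test), and EPCAM fell by 0.35. All 3 genes of the ERBB2 amplicon that marks this line were detected and fell, by 0.24 (ERBB2), 0.39 (GRB7) and 0.45 (STARD3). The genes of these lists were named after their values were seen. Of the 9 fibroblast markers only COL1A1, COL1A2 and FAP exceeded 3 counts in any sample, and LUM was at 0 throughout. The fibroblast list summed to between 26.4 and 41 CPM. The 5 endothelial markers summed to 57.5 CPM in each shCON sample and to 108 and 101 CPM in shZDHHC15, with 2 higher and 1 lower. The 8 leukocyte markers summed to at most 2.09 CPM, with CD3E and FCGR3A among those at 0 and CD14 higher. The part of these markers in the results below was not tested.

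Promoter stretches are shown for 3 genes because TGFB2, TGFBR1 and INHBA had the largest changes among the 10 genes. They are the bases just before a RefSeq transcript start (GRCh38.p14), cut where an annotated exon of a coding gene begins and written 5′ to 3′ on the strand of the gene. Capitals mark the letters CAGAC or GTCTG, the core that SMAD proteins bind, and GGAATG or CATTCC, the core that TEAD factors bind.
TGFB2, chr1:218345086-218345335, plus strand: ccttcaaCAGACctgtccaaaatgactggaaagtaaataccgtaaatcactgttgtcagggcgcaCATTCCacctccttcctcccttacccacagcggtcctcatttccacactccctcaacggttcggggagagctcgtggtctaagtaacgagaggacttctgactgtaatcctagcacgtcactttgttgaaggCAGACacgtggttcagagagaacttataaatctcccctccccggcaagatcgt
TGFBR1, chr9:99104833-99105082, plus strand: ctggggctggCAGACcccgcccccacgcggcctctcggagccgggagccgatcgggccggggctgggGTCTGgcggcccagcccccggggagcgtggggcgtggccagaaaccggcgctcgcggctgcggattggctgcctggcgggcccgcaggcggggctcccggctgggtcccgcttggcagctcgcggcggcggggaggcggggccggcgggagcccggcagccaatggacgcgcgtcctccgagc
INHBA, chr7:41703109-41703340, minus strand: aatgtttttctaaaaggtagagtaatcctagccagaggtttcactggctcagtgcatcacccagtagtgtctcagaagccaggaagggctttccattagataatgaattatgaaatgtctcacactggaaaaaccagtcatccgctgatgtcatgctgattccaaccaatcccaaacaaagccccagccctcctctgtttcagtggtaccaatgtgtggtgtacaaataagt

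The TGFB2 stretch held the SMAD core at 243 and 53 bases before the start and the TEAD core at 185 bases before it. The TGFBR1 stretch held the SMAD core at 240 and 183 bases, and the INHBA stretch held neither. TGFB2 and INHBA each have 1 window in RefSeq. TGFBR1 has 8, of which 4 held the SMAD core, 1 held the TEAD core and 3 held neither, and the one printed is the nearest to a GENCODE start of TGFBR1 among those without a GENCODE exon. Over 35116 RefSeq windows of 250 bases, 38% held the SMAD core and 11.9% the TEAD core on either strand, so a match is a description of the letters and not of a bound site. The AP-1 letters TGANTCA, present in 6.57% of windows, were in none of the 3 stretches. The RefSeq start of TGFB2 lies 899 bases from the nearest TGFB2 start in the annotation used for counting, and the stretch also carries exons of the noncoding gene TGFB2-AS1 on the opposite strand.

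Of the ligand genes, TGFB2 and INHBA fell in ZDHHC15-depleted cells, and TGFB1 and TGFB3 did not pass the test. TGFB2 (ENSG00000092969, chromosome 1, 218346235 to 218444619) received 5871 and 4609 counts in shCON and 1881 and 2599 counts in shZDHHC15. Both depleted samples lay below both controls. Its level went from 298 ± 34.5 to 117 ± 22.2 CPM (SD, n = 2 per group), 2.55-fold lower, and the log2 fold change was -1.35 (standard error, SE, 0.123, adjusted p = 8.19e-07 by edgeR's quasi-likelihood test). In bulk RNA, fewer cells expressing a gene and less RNA per cell cannot be told apart. The noncoding TGFB2-AS1, examined after its counts were seen, also fell, from 605 and 540 counts to 178 and 192 counts (log2 fold change -1.75, adjusted p = 1.3e-07 by edgeR), and in GENCODE release 29, which the count table matches, its exons share no bases with those of TGFB2. The RefSeq start of TGFB2 lies inside TGFB2-AS1, so an overlap of the transcripts from that start is possible.

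INHBA encodes the inhibin beta A subunit, which forms activin A as a homodimer. INHBA (ENSG00000122641, chromosome 7, 41667168 to 41705834) was the most highly counted of the 10 genes, with 14438 and 11037 counts in shCON and 6303 and 8822 counts in shZDHHC15. The groups did not overlap, although the samples within each group were unequal. The level fell from 723 ± 97.3 to 394 ± 78.4 CPM (SD, n = 2), and the log2 fold change was -0.88 (SE 0.124, adjusted p = 5.87e-05 by edgeR). Leaving out each sample in turn moved this value between -1.10 and -0.69, and that of TGFB2 between -1.56 and -1.17. In both genes shCON replicate 1 held the highest value and shZDHHC15 replicate 1 the lowest.

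TGFB1, the isoform best known in tumours (ENSG00000105329, chromosome 19, 41301587 to 41353911), received 978 and 975 counts in shCON and 896 and 911 counts in shZDHHC15. On the CPM scale it was 55.7 ± 2.94 and 47.3 ± 1.21 (SD, n = 2), with both depleted samples below both controls. The log2 fold change of -0.24 did not pass the test (SE 0.106, adjusted p = 0.086 by edgeR), and it passed without shCON replicate 1 (-0.32, adjusted p = 0.026). A stretch of 215 exon bases of TGFB1 is shared with HNRNPUL1 on the opposite strand, which received between 11229 and 12273 counts. HNRNPUL1 also had a log2 fold change of -0.24 (adjusted p = 0.037 by edgeR), and its part in the TGFB1 value was not tested. The sources used here do not say if reads were counted by strand.

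TGFB3 was close to the limit of detection, with 18 and 23 counts in shCON and 32 and 43 counts in shZDHHC15. The depleted samples were the higher ones, at 1.95 ± 0.334 against 1.18 ± 0.266 CPM (SD, n = 2). The log2 fold change of 0.74 had a standard error of 0.356 and did not pass the test (adjusted p = 0.109 by edgeR).

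TGFB2 made up less of the isoform pool in both depleted samples. Divided by gene length, so that genes can be compared, TGFB2 was 78.9% and 74.5% of the summed level of TGFB1, TGFB2 and TGFB3 in the shCON samples and 56.3% and 63.5% in the shZDHHC15 samples. TGFB1 went from 20.9% and 25.1% to 42.7% and 35.4%, and TGFB3 from 0.253% and 0.39% to 1% and 1.1%. TGFB2 thus had the largest share in all 4 samples, by a smaller margin after depletion. The ratio of TGFB2 to TGFB1 was 3.77 and 2.97 in shCON and 1.32 and 1.79 in shZDHHC15. The groups did not overlap for any of these shares, and an exact two-sided permutation test gave p = 0.33, the smallest that 2 samples against 2 allow.

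**Figure D1:**
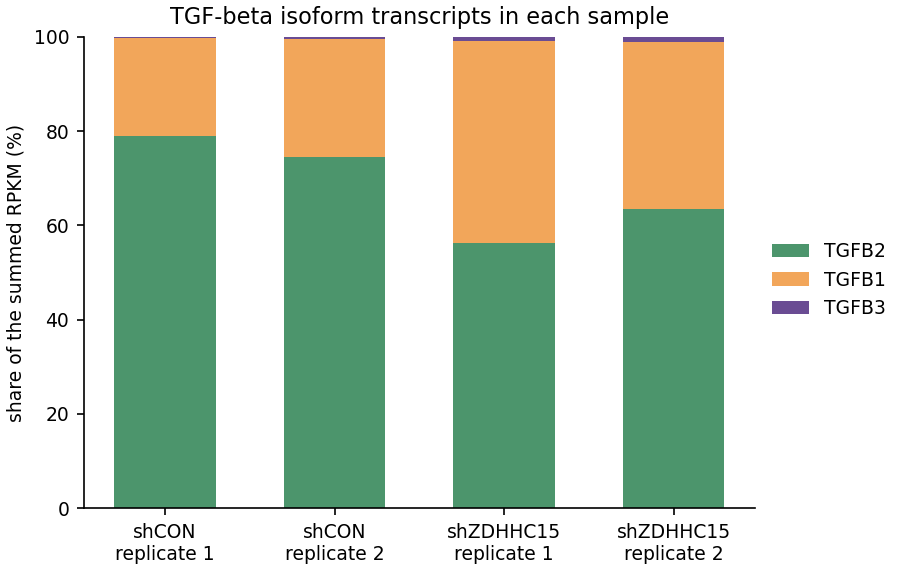
Stacked bars give the share (%) of TGFB2, TGFB1 and TGFB3 in their summed RPKM (CPM per kilobase of gene length) in each of the 4 samples. The TGFB2 share is 78.9% and 74.5% in the shCON samples and 56.3% and 63.5% in the shZDHHC15 samples.

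LTBP2 encodes a matrix protein of the latent TGF-beta binding family that, unlike its relatives, does not hold latent TGF-beta itself. LTBP2 (ENSG00000119681, chromosome 14, 74498170 to 74612378) received 355 and 306 counts in shCON and 602 and 603 counts in shZDHHC15. The depleted samples were nearly equal and both higher. The level rose from 18.8 ± 0.942 to 31.5 ± 1.14 CPM (SD, n = 2), with a log2 fold change of 0.74 (SE 0.124, adjusted p = 2.48e-04 by edgeR).

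Of the receptor genes, TGFBR1 fell and TGFBR2 did not pass the test. TGFBR1, the type I receptor kinase that phosphorylates SMADs (ENSG00000106799, chromosome 9, 99104038 to 99154192), received 2732 and 2200 counts in shCON and 1060 and 1240 counts in shZDHHC15. It fell from 140 ± 13.7 to 60.1 ± 4.41 CPM (SD, n = 2), and the log2 fold change was -1.22 (SE 0.107, adjusted p = 5.01e-07 by edgeR). The change was 2.33-fold, and it lay between -1.33 and -1.15 on the log2 scale with each sample left out.

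TGFBR2, the type II receptor that binds the ligand first (ENSG00000163513, chromosome 3, 30606502 to 30694142), received 2228 and 1868 counts in shCON and 1891 and 1944 counts in shZDHHC15. Scaled to library size the depleted samples were the lower ones, at 100 ± 1.78 against 116 ± 8.11 CPM (SD, n = 2). The log2 fold change of -0.22 did not pass the test (SE 0.0971, adjusted p = 0.0881 by edgeR), and it passed without shCON replicate 2 (-0.30, adjusted p = 0.0233). Per gene length the ratio of TGFBR1 to TGFBR2 was 0.843 and 0.809 in shCON and 0.385 and 0.438 in shZDHHC15, without overlap between groups (exact two-sided permutation p = 0.33, the smallest possible).

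SMAD3, the transcription factor that the type I receptor activates (ENSG00000166949, chromosome 15, 67063763 to 67195195), rose. It received 2322 and 2218 counts in shCON and 3191 and 3619 counts in shZDHHC15. The level went from 129 ± 2.92 to 178 ± 9.19 CPM (SD, n = 2), and the log2 fold change was 0.46 (SE 0.0929, adjusted p = 0.00114 by edgeR). The transcript of the signal transducer was thus higher in the same samples in which that of its activating receptor was lower.

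SMAD7, an inhibitory SMAD that is itself induced by the pathway (ENSG00000101665, chromosome 18, 48919853 to 48952052), received 441 and 431 counts in shCON and 480 and 571 counts in shZDHHC15. The groups were close, at 24.9 ± 0.963 and 27.4 ± 2.34 CPM (SD, n = 2), without overlapping. The log2 fold change was 0.14 with a standard error of 0.125 (adjusted p = 0.385 by edgeR). The value moved between 0.05 and 0.23 with each sample left out.

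TGFBI encodes a secreted adhesion protein named for its induction by TGF-beta. TGFBI (ENSG00000120708, chromosome 5, 136028895 to 136063818) received 5751 and 5386 counts in shCON and 4567 and 4786 counts in shZDHHC15. It fell from 317 ± 2.72 to 245 ± 1.03 CPM (SD, n = 2). The samples within each group were closer together than for any other of the 10 genes relative to their mean, and the log2 fold change was -0.38 (SE 0.0867, adjusted p = 0.00292 by edgeR).

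**Figure D2:**
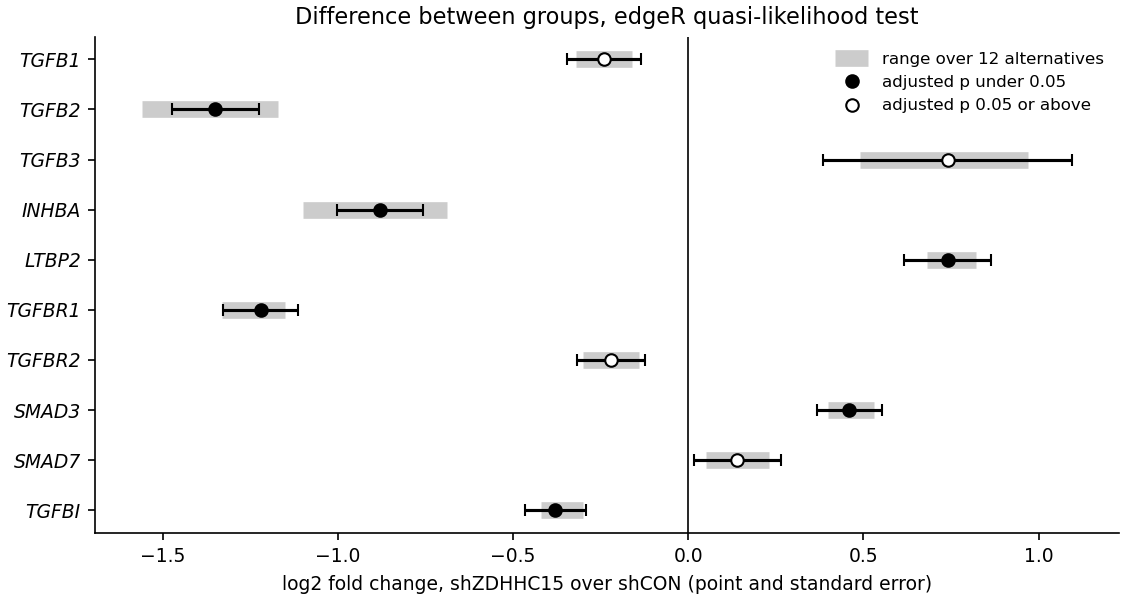
Points give the log2 fold change of each gene in shZDHHC15 over shCON cells with its standard error, filled where the adjusted p is under 0.05, and grey bars give the range over the 12 alternative settings. TGFB2, TGFBR1, INHBA and TGFBI lie below 0 and LTBP2 and SMAD3 above 0 with filled points, and no grey bar crosses 0.

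Counted together, 4 of the 10 genes were lower (TGFB2, TGFBR1, INHBA and TGFBI) and 2 were higher (LTBP2 and SMAD3) at an adjusted p under 0.05. Over all tested genes the same rule called 20.3% lower and 21.7% higher, 42.0% in either direction. With a log2 fold change past 1 as well, TGFB2 and TGFBR1 were lower and 0 were higher by edgeR, against 3.79% and 7.51% of all genes. The count of 0 was also found at an unadjusted p under 0.05, where 8.15% of all genes were higher past this limit, and by DESeq2, where 5.94% were. The groups did not overlap in any of the 10 genes, 6 lower and 4 higher, where 35.3% of all tested genes were lower without overlap and 37.2% higher. The median log2 fold change of the 10 genes was -0.23, against 0.02 over all genes, and their median absolute value was 0.60 against 0.37.

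Per gene length, in RPKM, the order of levels in shCON cells was INHBA (87.1), TGFB2 (57.8), TGFBI (40.6), TGFBR2 (24.8), TGFBR1 (20.5), TGFB1 (17.2), SMAD3 (14.2), SMAD7 (4.94), LTBP2 (2.07) and TGFB3 (0.239). No neighbours in this order overlapped between their samples. In shZDHHC15 cells INHBA remained first (47.5), followed by TGFBI (31.3), TGFB2 (22.7), TGFBR2 (21.3), SMAD3 (19.5), TGFB1 (14.6), TGFBR1 (8.77), SMAD7 (5.45), LTBP2 (3.47) and TGFB3 (0.398). There the samples of TGFB2, at 19.6 and 25.7, overlapped with those of TGFBR2 and of SMAD3, so these are not ordered beyond their spread. TGFB2 moved below TGFBI, and TGFBR1 went from above TGFB1 and SMAD3 to below them. These lengths are those of merged exons, which overstate the transcript where long exons are not used.

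**Figure D3:**
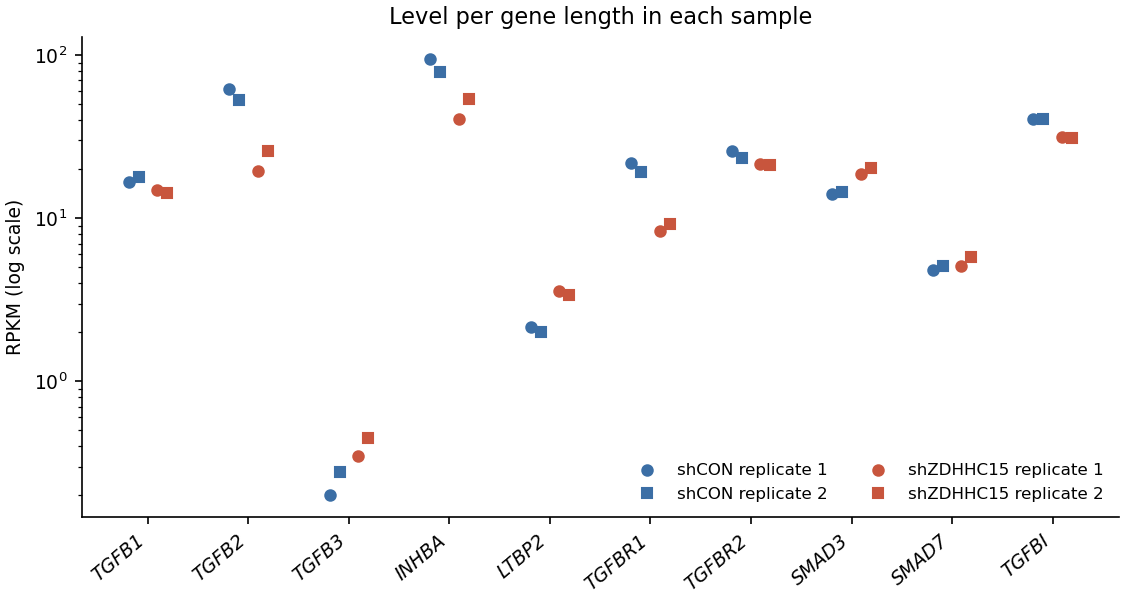
Each point is the level of a gene in 1 sample in RPKM on a log axis, with shCON in blue, shZDHHC15 in red, circles for replicate 1 and squares for replicate 2. Levels run from 0.201 for TGFB3 to 95.4 for INHBA, and the red points of TGFB2 and TGFBR1 lie farthest below the blue ones.

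The rest of the pathway was examined through 6 lists by role, written from general knowledge with earlier results of these data known. They hold 86 genes, of which 74 could be tested, with 22 higher and 22 lower (each 29.7% of those tested, against the 21.7% and 20.3% of all genes above). The shares differed by role.

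**Figure D4:**
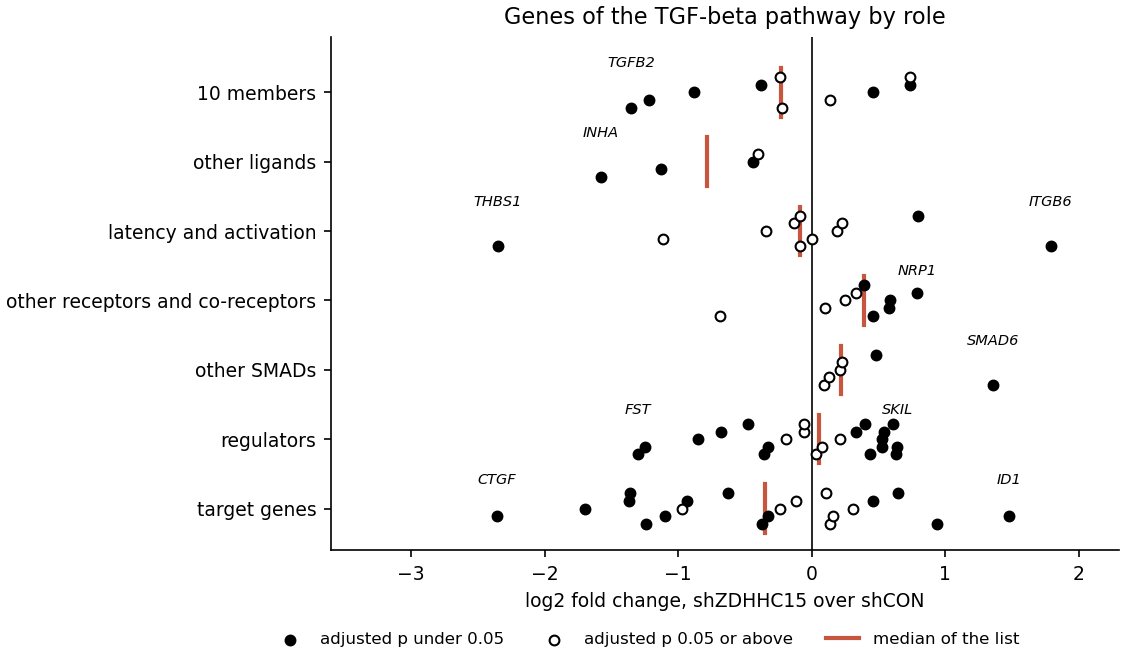
Each point is a tested gene of the TGF-beta pathway, with 1 target gene not drawn, placed by its log2 fold change in shZDHHC15 over shCON cells, filled where the adjusted p is under 0.05, with the median of each list as a vertical bar. The median is -0.78 for the other ligands, 0.39 for the other receptors and co-receptors and -0.35 for the target genes.

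Of 10 other ligand genes 4 could be tested, with a median log2 fold change of -0.78. By edgeR 3 were lower and 0 higher, against 20.3% and 21.7% of all genes tested. DESeq2 gave the same counts, against 17.1% lower and 16.7% higher of all genes tested, and at an unadjusted p under 0.05 there were 4 lower and 0 higher genes, against 23.9% and 25.5% of all genes. INHBB, the subunit of activin B, had 5936 and 5872 counts in shCON and 2775 and 3136 counts in shZDHHC15, and fell by 1.13 on the log2 scale (SE 0.0921, adjusted p = 2.52e-07 by edgeR). INHA, the alpha subunit that turns a beta subunit into inhibin, an activin antagonist, fell by 1.58 from 175 and 176 counts to 58 and 70 (adjusted p = 2.31e-05). With INHBA, all 3 inhibin and activin subunit genes that could be tested were lower. GDF15, a stress-induced relative, fell by 0.44 (adjusted p = 0.00185). The remaining 6 had at most 5 counts in a sample.

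Among regulators, 9 of 22 tested genes were higher (40.9%) and 7 lower (31.8%), with a median of 0.05. Of all tested genes 21.7% were higher and 20.3% lower. FST and FSTL3 encode follistatin and follistatin-like 3, secreted proteins that bind and neutralise activins. FST had 478 and 440 counts in shCON and 161 and 245 counts in shZDHHC15, and fell by 1.30 on the log2 scale (SE 0.162, adjusted p = 1.77e-05 by edgeR). FSTL3 fell by 1.25, from 5262 and 5465 counts to 2079 and 2856 (adjusted p = 1.1e-06). The activin subunits and both of these activin antagonists thus fell in the same samples. NEDD4L, a ubiquitin ligase that targets activated SMADs, fell by 0.85 (adjusted p = 8.96e-06).

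The regulators with the largest rises were the SMAD corepressor SKIL (log2 fold change 0.64, adjusted p = 7.57e-04 by edgeR), the corepressor TGIF2 (0.63, adjusted p = 0.00544) and the SMAD coactivator EP300 (0.61, adjusted p = 0.00102). The TGIF2 call was lost without shCON replicate 1 (0.42, adjusted p = 0.0516). Repressors and a coactivator of SMAD transcription were thus both among the higher genes. TGIF1, a related corepressor counted more highly than TGIF2 and named after its values were seen, went the other way. It had 4797 and 4554 counts in shCON and 3423 and 3872 counts in shZDHHC15, and fell by 0.48 (adjusted p = 5.94e-04 by edgeR).

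Of 14 genes for latency and activation 11 could be tested, and 1 fell, 2 rose and 8 did not pass. These were 9.09% lower and 18.2% higher, against 20.3% and 21.7% of all tested genes. With 11 genes tested, this difference rests on few genes. THBS1, thrombospondin 1, which can release TGF-beta from its latency peptide, had 41391 and 33446 counts in shCON and 6310 and 9700 counts in shZDHHC15, a log2 fold change of -2.35 (adjusted p = 7.76e-09 by edgeR). ITGB6, the beta subunit of an epithelial integrin that activates latent TGF-beta, went the other way, from 1115 and 812 counts to 3829 and 3405, a rise of 1.79 (SE 0.124, adjusted p = 4.02e-08). MMP2, a gelatinase, rose by 0.80 (adjusted p = 9.1e-05). ITGAV, the alpha partner of ITGB6, had a log2 fold change of -0.09 (adjusted p = 0.505), FURIN, the convertase that cleaves the precursors, 0.00 (adjusted p = 0.996), and LTBP1 0.19 (adjusted p = 0.234). The last 3 were named after their values were seen. Without shCON replicate 1 more genes of the list passed in each direction.

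Of 10 other receptors and co-receptors 9 could be tested, with a median of 0.39. By edgeR 5 rose and 0 fell (21.7% and 20.3% of all genes). At an unadjusted p under 0.05, 5 were higher and 1 lower (25.5% and 23.9% of all genes), and DESeq2 called 3 higher and 0 lower (16.7% and 17.1% of all genes). NRP1, a co-receptor shared with other ligands, rose by 0.79 (SE 0.11, adjusted p = 5.13e-05 by edgeR). ACVR1, a type I receptor for activins and bone morphogenetic proteins, rose by 0.59 (adjusted p = 0.00173) and ENG, endoglin, by 0.58 (adjusted p = 0.02). The other 2, named only to complete the count, were the activin receptor genes ACVR1B (0.39, adjusted p = 0.0148) and ACVR2A (0.46, adjusted p = 0.049). The gene lower at the unadjusted p, also named to complete the count, was TGFBR3. It had 69 and 47 counts in shCON and 41 and 37 counts in shZDHHC15. Its log2 fold change of -0.69 did not pass the test (adjusted p = 0.0664 by edgeR). The count moved with single samples, and was 2 without either shZDHHC15 replicate 1 or shZDHHC15 replicate 2, and 3 without shCON replicate 2. The ENG call was lost without each of these samples (adjusted p = 0.0844, 0.0507 and 0.072), and a gene on the opposite strand shares exon bases with ENG. Without shCON replicate 2, 1 gene of the list passed as lower.

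Of the 6 other SMADs 2 rose and 0 fell by edgeR, with the same counts at an unadjusted p under 0.05 and 1 higher and 0 lower by DESeq2. Of all genes, 21.7% were higher by edgeR, 25.5% by the unadjusted p and 16.7% by DESeq2, so these counts are near the background. SMAD6, an inhibitory SMAD related to SMAD7, had 167 and 204 counts in shCON and 548 and 489 counts in shZDHHC15, and rose by 1.36 on the log2 scale (SE 0.159, adjusted p = 1e-05 by edgeR). SMAD1, which acts in bone morphogenetic protein signalling, rose by 0.48 (adjusted p = 0.0289), a call lost without shCON replicate 1 (adjusted p = 0.117), shZDHHC15 replicate 1 (adjusted p = 0.118) or shZDHHC15 replicate 2 (adjusted p = 0.0804), each of which left 1 gene higher. SMAD2 (0.09, adjusted p = 0.543) and SMAD4 (0.23, adjusted p = 0.14), the partners of SMAD3, were not called, and were named after their values were seen.

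Among 23 genes known as targets of TGF-beta, 22 were tested, with 11 lower (50%) and 4 higher (18.2%) and a median of -0.35. Of all tested genes 20.3% were lower and 21.7% higher, so the share of higher targets was not above the background. Several of them, among them CTGF, and THBS1 of the latency list, are also known as targets of YAP, the coactivator that the study examined. CTGF, a matricellular gene, had 2256 and 2026 counts in shCON and 324 and 591 counts in shZDHHC15, and fell by 2.36 on the log2 scale (adjusted p = 7.16e-08 by edgeR). HMGA2, a chromatin protein gene, fell by 1.70 (adjusted p = 1.83e-06).

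The 4 higher target genes included ID1, which bone morphogenetic proteins induce and TGF-beta can repress in epithelial cells. ID1 had 998 and 1060 counts in shCON and 3093 and 3189 counts in shZDHHC15, a rise of 1.48 on the log2 scale (SE 0.102, adjusted p = 4.01e-08 by edgeR). BHLHE40, a transcriptional repressor gene, rose by 0.94 (adjusted p = 3.66e-06). The collagen gene COL1A1, also on the fibroblast marker list, rose by 0.65 (adjusted p = 0.0232) and the call was lost without shCON replicate 1 (0.43, adjusted p = 0.115) or shZDHHC15 replicate 1 (0.38, adjusted p = 0.257). The fibronectin gene FN1, the last of the 4 and named to complete the count, rose by 0.46 (adjusted p = 0.00196). Without shZDHHC15 replicate 1 the count of higher targets was 2.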

How the data were processed

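RNA-seq of HCC1954 cells was used, with 2 shCON and 2 shZDHHC15 samples grouped by their labels. The authors deposited 1 table of raw counts of reads per gene, not normalized, with gene positions and lengths. The submitters' processing notes name HISAT2, StringTie, SAMtools and hg38, and the counting tool and strand setting are not given in the sources used here. All 58735 identifiers, positions and symbols matched GENCODE release 29 (GRCh38), and every length equalled the merged exons. All 4 count columns were used.

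The members and lists were chosen with earlier results of these data known. Genes passing filterByExpr (15817) were scaled by TMM. The quasi-likelihood test of edgeR 4.0.16 (under R 4.3.3 with limma 3.58.1) was used through glmQLFit, with its newer dispersion estimate, and glmQLFTest. P-values were adjusted over all tested genes by the Benjamini-Hochberg method. A gene was called at an adjusted p under 0.05. The standard error was the log2 fold change over the root of F. CPM used TMM-scaled library sizes, and RPKM divided CPM by length in kilobases. Total counts of 17560982 to 19118704 allow up to 3 counts behind a 0, counting error only. Beside the 10 members and ZDHHC15, the text names up to 3 called genes with the largest rise and 3 with the largest fall per list, if the higher group averaged 50 counts or more. HNRNPUL1 is named for its exon overlap with TGFB1, and other names outside this rule are given as such. Except in the counts and medians of the lists, results that this rule would name for 1 target gene are not reported here. The tests were tested on simulated data. Alternatives were other scalings, filters and dispersions, DESeq2 1.42.0, a replicate block and leaving out each sample. Genes with a 150-base stretch of at least 97% identity to another gene were looked up, and each such partner overlapped the gene itself. Exons of TGFB2, TGFB3, LTBP2 and SMAD3, and of ITGB6, MMP2, THBS1, NRP1, ENG, SMAD1, TGIF2, EP300, NEDD4L, BHLHE40, CTGF and HMGA2, share bases with another gene, so the share of reads assigned to each is uncertain there. These partners had at most 14 counts in a sample, except that of ENG with 24 to 58. Sequences are from RefSeq windows (GRCh38.p14), which all 10 members matched.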

Additional observations from a re-analysis of the deposited data

How the results depend on the processing

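All 10 genes kept the direction of their fold change under all 12 alternatives, and the 6 called genes kept their calls. TGFB1 lay between -0.32 and -0.19 on the log2 scale with each sample left out and passed the test without shCON replicate 1. TGFBR2 lay between -0.30 and -0.17 and passed without shCON replicate 2. With 1 sample in a group, these fits assume that it varies like the other group. The replicate numbers are not said to pair the samples, and the difference between replicates 1 and 2 in shCON correlated with that in shZDHHC15 at 0.061 across 15817 genes. With the replicate number as a block, TGFBR2 passed (-0.21, adjusted p = 0.0465), and 3723 genes were higher and 3502 lower over the table, against 3427 and 3217.

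With no filter on low counts 30168 genes were tested, and 2282 were higher and 2350 lower, against 3427 and 3217 of 15817. Among other receptors the 5 higher genes became 2 with no filter, 3 by DESeq2, and 2 to 4 with each sample left out, and 0 to 1 were lower. Among other SMADs the 2 higher genes became 1 with no filter or by DESeq2, and 1 to 2 with each sample left out. The 9 higher regulators became 5 with no filter. With each sample left out, higher target genes numbered 2 to 4 and lower latency genes 1 to 2. Without division by gene length, the TGFB3 share differed by 0.839 percentage points in place of 0.731. For these changes the cause was not tested. Depth limits TGFB3, with 18 to 43 counts in a sample. Beyond the members, 26 genes were followed gene by gene, those that the naming rule picked with TGFB2-AS1, INHBA-AS1 and HNRNPUL1. Genes named outside the rule, such as ACVR2A, TGIF1, FN1, ITGA2 and PMEPA1, were not among them. Of 312 values for 26 other genes, 290 kept their direction and side of the threshold and 22 lost their call, those of ENG, SMAD1, TGIF2, COL1A1, INHBA-AS1 and HNRNPUL1, and 0 were reversed.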

Other observations

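Further genes of the target and regulator lists are given here, named after their values were seen. TAGLN, an actin-binding protein gene, had 1672 and 1504 counts in shCON and 547 and 792 counts in shZDHHC15, and fell by 1.37 on the log2 scale (adjusted p = 1.25e-06 by edgeR's quasi-likelihood test). TPM1, a tropomyosin gene, fell by 1.10 (adjusted p = 4.2e-07), while TPM2 had a log2 fold change of 0.16 (adjusted p = 0.425). The cytokine gene IL11 fell by 1.36 (adjusted p = 5.95e-05) and ANGPTL4, a secreted inhibitor of lipoprotein lipase, by 1.24 (adjusted p = 1.04e-05). The focal adhesion scaffold gene NEDD9 fell by 0.63 (adjusted p = 4.26e-05), the AP-1 subunit gene JUNB by 0.33 (adjusted p = 0.00893) and the integrin gene ITGA2 by 0.37 (adjusted p = 0.0314). For ITGA2 the groups nearly touched, at 273 and 200 CPM in shCON and 167 and 198 CPM in shZDHHC15. SNAI2, a repressor of epithelial genes, fell by 0.93 (adjusted p = 5.72e-05), and its relative SNAI1 had a log2 fold change of 0.31 (adjusted p = 0.098).

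PMEPA1, a pathway-induced membrane protein that sequesters SMADs, had the highest counts of the regulators tested, with 35869 and 35694 counts in shCON and 22771 and 26016 counts in shZDHHC15, and fell by 0.68 (adjusted p = 2.37e-05 by edgeR). BAMBI, of the same list, went the other way. It had 419 and 393 counts in shCON and 658 and 632 counts in shZDHHC15, and rose by 0.54 (adjusted p = 0.00221 by edgeR). In that list 9 genes were higher and 7 lower. KLF10 (0.14, adjusted p = 0.308) and the cell-cycle inhibitors CDKN1A (-0.24, adjusted p = 0.093) and CDKN2B (-0.12, adjusted p = 0.371), all known as early targets, were not called. INHBA-AS1, on the strand opposite INHBA, had 129 and 62 counts in shCON and 42 and 59 counts in shZDHHC15, and its call (adjusted p = 0.014) was lost without shCON replicate 1 (adjusted p = 0.248) and where low counts were not filtered (adjusted p = 0.0998).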
